A study of Saccharomyces cerevisiae with 9 samples.

Results

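The 34 yeast genes described here encode the proteasome and proteins that belong to its life cycle, and the data are the nucleosomes along them in ioc3Δ and wild-type (WT) cells. A gene was a member if it was on a fixed list of RPN, RPT, PRE, PUP and SCL1 symbols. A nucleosome call was counted if its WT dyad, the midpoint of the nucleosome, lay between 60 bp upstream of the start codon and the stop codon. This gave 226 of the 49751 calls in 6002 protein-coding genes, 3 to 14 calls per member, and none of the 226 lay in a second gene. The list fits its name with 2 exceptions, as RPN4 encodes the transcription factor of the proteasome genes and RPN14 an assembly chaperone, and neither is a subunit. The lid subunit SEM1 was not on the list.

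The proteasome degrades ubiquitin-tagged proteins. Its 20S core is a barrel of outer alpha rings and inner beta rings, and the beta rings carry the proteolytic sites. The 19S regulatory particle has a base, whose ring of Rpt ATPases unfolds the substrate, and a lid, whose Rpn11 subunit cuts off the ubiquitin chain. In yeast the subunit genes are switched on together by Rpn4, which binds the proteasome-associated control element (PACE) in their promoters and is itself degraded by the proteasome. The first nucleosome of a gene is called +1, and the ones behind it +2, +3 and +4.

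MNase-seq, in which micrococcal nuclease trims chromatin to nucleosome-sized DNA before sequencing, was done on formaldehyde-fixed cells of 3 BY4742 strains, with 3 cultures each, grown in YPD at 30 °C to an OD600 of 0.8. The first strain was ioc3Δ (△Ioc3 in the labels), which lacks the Ioc3 subunit of the ISW1a chromatin remodeler. The second was labelled Ioc3△cHLB, a truncation within the HLB domain of Ioc3. The third was WT ISW1a. The comparison asks where nucleosomes lie when Ioc3 is lost. The labels give FLAG as the epitope tag of all 3, also of ioc3Δ, although the protocol describes FLAG on Ioc3 itself. The authors merged the cultures of a strain before calling nucleosomes, so each strain had 1 library, and neither a spread between cultures nor a test across them can be given. All comparisons describe these merged libraries.

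Depth was recovered from the occupancies, which in ioc3Δ and WT were whole multiples of 1 value to within 1% of it. Member calls held 98397 fragments in ioc3Δ and 125555 in WT, with a median of 239.5 and 372.5 per call and a minimum of 21 and 56. Counting errors below come from these fragments and the spread of the dyads in a call, and belong to a difference between mean dyads. The shifts they stand beside are between the peak dyads of calls, unless the mean is named. These errors cover counting error only, since PCR copies are not independent molecules. The table labelled ioc3ΔcHLB went against its label. The coding calls of IOC3 held 0.680% of their WT occupancy in that table, and 0.574% in ioc3Δ. Of 222 member calls with the same WT dyad in both comparisons, 166 (74.8%) had mutant occupancies within 1% of each other, while 11 (4.95%) had ioc3Δ and WT occupancies that close. Values of that table are given by its label beside those of ioc3Δ, and its depth is not known. The dyads of both mutant tables at these calls differed by a median of 2 bp, and 17 calls (7.66%) had them 10 bp or more apart. Both comparisons share the WT library, and whether the mutant tables hold different strains is not known. A shift found in both mutant tables is thus not independent support.

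An exact PACE, GGTGGCAAA on either strand, stood in the window from 250 bases before to 50 bases after the start codon of 27 of the 34 members (79.4%), and of 72 of all 6002 genes (1.2%). The motif was read in the direction of the gene in 19 members and on the opposite strand in 8. Its first base lay 84 to 183 bases before the start codon. PRE5, PUP1, RPN8, RPN10, RPN13, RPN4 and RPN14 had no match in these letters. The stretches below run from 10 bases before the motif to the WT dyad of the +1 nucleosome, 5′ to 3′ along the gene, in the sacCer3 (R64) sequence of RefSeq, with the motif in capitals. They were chosen because they hold the member with the farthest +1 shift (PRE2, a catalytic beta subunit), the motifs nearest to and farthest from the start codon (RPT6, a base ATPase, and PUP3, a beta subunit), the motif nearest to the +1 dyad (RPN7, lid) and another motif on the opposite strand (RPN12, lid).
PRE2 (chrXVI:732184-732314, + strand): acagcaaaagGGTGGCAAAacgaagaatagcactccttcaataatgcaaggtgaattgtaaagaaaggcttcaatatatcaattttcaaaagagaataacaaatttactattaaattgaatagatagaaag
RPT6 (chrVII:411265-411380, - strand): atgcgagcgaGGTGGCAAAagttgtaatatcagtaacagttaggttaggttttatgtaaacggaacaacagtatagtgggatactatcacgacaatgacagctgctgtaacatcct
PUP3 (chrV:349384-349539, - strand): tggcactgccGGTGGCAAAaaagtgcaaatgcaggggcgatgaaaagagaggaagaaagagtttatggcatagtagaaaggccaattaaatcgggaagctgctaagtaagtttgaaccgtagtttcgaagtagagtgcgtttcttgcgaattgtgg
RPN7 (chrXVI:742290-742395, + strand): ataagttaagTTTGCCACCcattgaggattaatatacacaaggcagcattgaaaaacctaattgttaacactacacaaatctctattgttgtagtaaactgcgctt
RPN12 (chrVI:252398-252518, + strand): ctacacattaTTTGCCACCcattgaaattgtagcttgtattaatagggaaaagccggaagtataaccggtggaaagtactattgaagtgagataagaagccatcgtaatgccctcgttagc

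The +1 call was sought from 60 bp before the start codon, and every motif began farther upstream. The WT dyad of +1 thus lay downstream of the motif by rule. Calls before that window were not looked at, so whether another nucleosome covered a motif was not tested. From the end of the motif to the +1 dyad there were 87 to 137 bp in ioc3Δ and 87 to 137 bp in WT, with medians of 116 and 117 bp. With a footprint of 147 bp, which reaches 73 bp to either side of the dyad, none of the 27 motifs lay under the +1 nucleosome in ioc3Δ and none in WT. RPN7 had the shortest distance, 87 bp in both strains, and PUP3 and RPT2 the longest, 137 bp in both.

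Along the genes, proteasome nucleosomes lay close to their WT places in ioc3Δ, while the same nucleosomes of all genes lay further downstream. Shifts are ioc3Δ minus WT dyads in the direction of transcription. RPN13, a ubiquitin receptor of the base, is 471 bp long and under the minimum of 560 bp, so 33 members had numbered positions. At +1 the median shift was 1 bp (interquartile range -1 to 3) in 33 members and 2 bp (0 to 5) in 4863 genes. At +2 it was 2 bp (0 to 4) in 33 members and 4 bp (1 to 8) in 4687 genes. At +3 it was 0 bp (-4 to 2) in 29 members, against 4 bp (0 to 10) in 4418 genes. At +4 it was -2 bp (-5 to 1.5) in 27 members, against 3 bp (-1 to 9) in 3996 genes. The 95% intervals of the member medians, which treat genes as independent, were -1 to 2, 1 to 3, -3 to 1 and -5 to 1 bp from +1 to +4. The all-gene medians at +2, +3 and +4 lay above these intervals, and the one at +1 did not. In the table labelled ioc3ΔcHLB the member medians were 1, 2, -1 and -2 bp, against 1, 4, 4 and 3 bp over all genes.

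**Figure D1:**
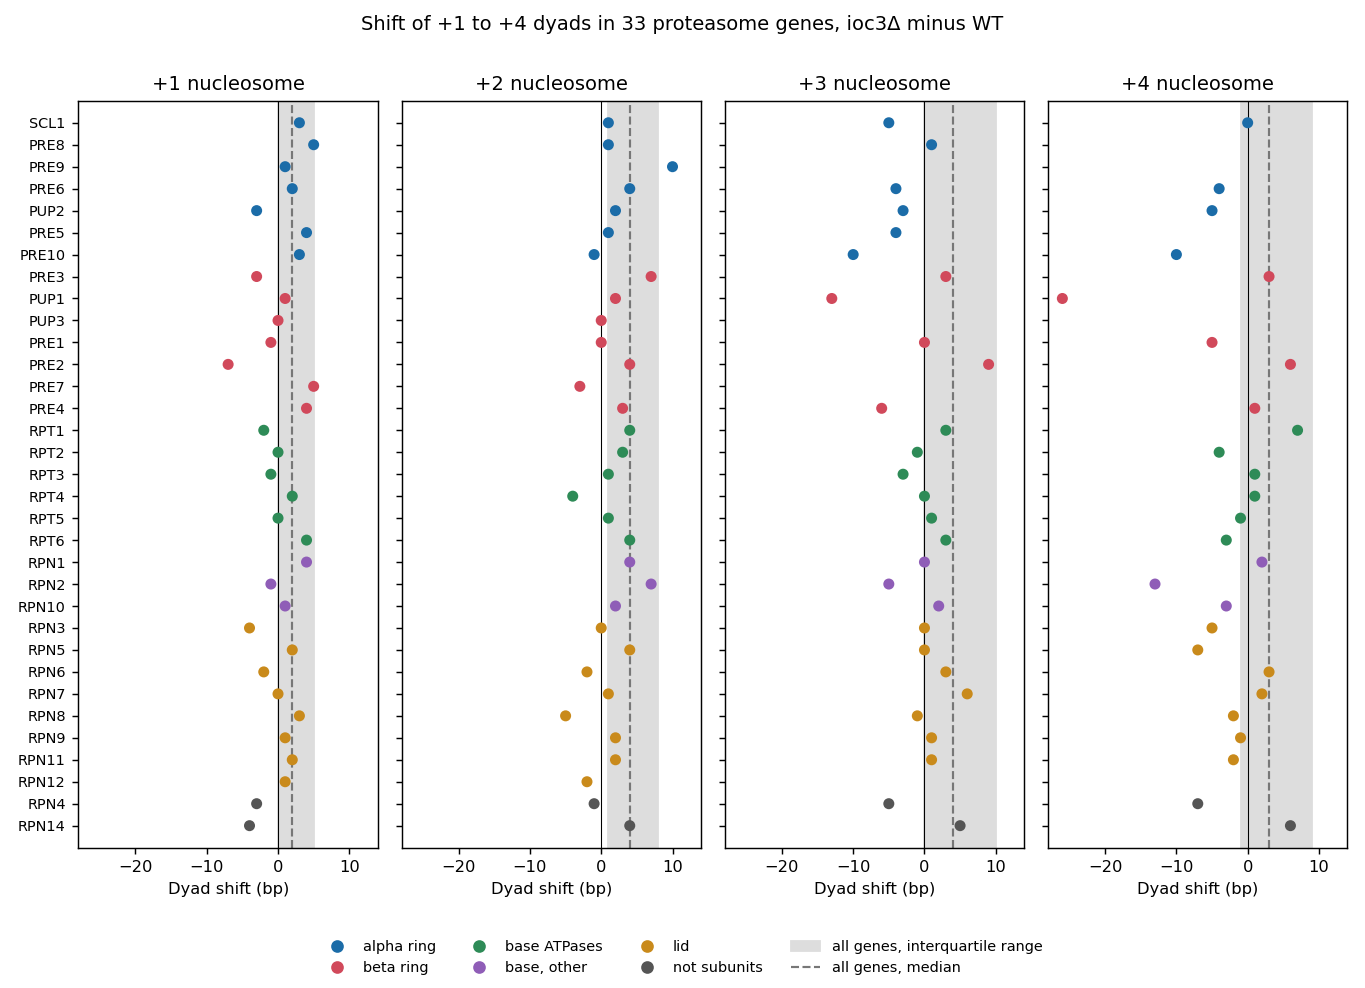
Shift of the +1 to +4 dyads (bp, ioc3Δ minus WT, downstream to the right) in 33 proteasome genes, 1 point per gene, coloured by subcomplex. The grey band is the interquartile range and the dashed line the median over all genes (2, 4, 4 and 3 bp). Most member points sit at or left of the dashed line at +3 and +4, and PUP1 at +4 (-26 bp) lies farthest out.

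The direction of the shifts was also split differently. At +2 the dyad lay downstream of WT in 23 members, at the same base in 3 and upstream in 7, while 78.7% of all genes had it downstream and 15.7% upstream. At +3 it was downstream in 12, at the same base in 5 and upstream in 12, against 74.0% and 20.5% of all genes. At +4 it was downstream in 10, at the same base in 1 and upstream in 16, against 64.1% and 29.4%. Shifts of 10 bp or more downstream were rare. No member had one at +1, where 9.71% of all genes did. At +2 the only one was PRE9, against 19% of all genes. None had one at +3 or +4, where the shares of all genes were 26.4% and 23.9%. Shifts of 10 bp or more upstream were found in 0 members at +1 and 0 at +2, where 2.51% and 2.39% of all genes had them. PUP1 and PRE10 had them at +3 (all genes 4.14%), and PUP1, PRE10 and RPN2 at +4 (all genes 5.18%). In the table labelled ioc3ΔcHLB the counts downstream were 0 members at +1 to +3, where 7.5%, 15.1% and 20.5% of all genes passed, and 2 at +4 (20.2%). The counts upstream were 0 at +1 (1.93%), 2 at +2 (1.87%), 2 at +3 (3.2%) and 4 at +4 (4.8%).

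In the alpha ring, PRE9, the only alpha subunit gene that yeast can live without, had its +2 dyad 165 bp past the start codon in ioc3Δ and 155 bp in WT. This shift of 10 bp was 8 bp by the mean of the dyads, with a counting error of 1.62 bp. By the peak it was the farthest downstream of the +2 shifts among the members, and it was 8 bp in the table labelled ioc3ΔcHLB. Its occupancy there was 68.7 in ioc3Δ and 49.98 in WT, and its +1 dyad lay 1 bp downstream. PRE6, a further alpha subunit gene, had the +2 dyad at 170 bp in ioc3Δ and 166 bp in WT, with +3 and +4 both 4 bp upstream. At +2 the dyads of 6 of the 7 alpha ring genes lay downstream. At +3 the dyads of 5 of the 6 with a call lay upstream (median -4 bp), and at +4 none of the 4 with a call lay downstream. PRE10 was 10 bp upstream at both +3 and +4, but 2 bp downstream at both in the table labelled ioc3ΔcHLB. By the mean of the dyads the ioc3Δ shifts of these PRE10 calls were -3 and 2 bp.

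In the beta ring, the genes of both the caspase-like subunit PRE3 and the chymotrypsin-like subunit PRE2 had +2 dyads downstream. PRE3 had it at 186 bp in ioc3Δ and 179 bp in WT, a shift of 7 bp (counting error 2.00 bp). PRE2 had it at 138 bp in ioc3Δ and 134 bp in WT, and its +1 dyad, at -42 bp in ioc3Δ and -35 bp in WT, was 7 bp upstream, the largest +1 shift of any member. That call rested on 52 and 89 fragments, with a counting error of 3.67 bp. PRE7, a noncatalytic subunit gene, had the +2 dyad at 181 bp in ioc3Δ and 184 bp in WT. By the mean of the dyads it lay 2 bp downstream, with a counting error of 1.34 bp. PUP1, the trypsin-like subunit gene, had +1 and +2 dyads within 2 bp of WT and +3 and +4 dyads 13 and 26 bp upstream. By the mean of the dyads its shifts from +1 to +4 were 0, 8, -16 and -12 bp. In the table labelled ioc3ΔcHLB the shifts of +2, +3 and +4 were -25, -40 and -27 bp, so of these 3 only +4 was placed alike in both mutant tables.

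The 6 ATPase genes of the base had the narrowest range of shifts, -4 to 7 bp over all of +1 to +4, with medians of 0, 2, 0.5 and 0 bp. RPT4 was the one among them with an upstream +2 dyad by the peak, at 174 bp in ioc3Δ and 178 bp in WT. By the mean of the dyads this shift was -1 bp, with a counting error of 1.94 bp, and RPT3 and RPT5 were at -1 bp too. In RPT1 the +4 dyad was 7 bp downstream, and RPT5 stayed within 1 bp from +1 to +4. RPN1 and RPN2, the scaffold subunits that hold ubiquitin receptors and shuttle factors, are the longest members. RPN1 had the +2 dyad at 168 bp in ioc3Δ and 164 bp in WT. RPN2 had it at 180 bp in ioc3Δ and 173 bp in WT, followed by shifts of -5 bp at +3 and -13 bp at +4. By the mean of the dyads the RPN2 shifts from +2 to +4 were 8, 3 and -8 bp, with counting errors of 1.36, 3.97 and 3.47 bp. RPN10, a ubiquitin receptor gene, was within 3 bp of WT at each of the 4 positions. RPN13 had 3 calls, which lay 1, 2 and 9 bp downstream.

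In the lid, RPN8, the partner of the deubiquitinase Rpn11, had the +2 dyad farthest upstream among members, at 255 bp in ioc3Δ and 260 bp in WT (-5 bp, counting error 2.26 bp). RPN11 itself had shifts of 2, 2, 1 and -2 bp. Positions were numbered from the start codon, and the WT +1 dyad of RPN8 lay at 99 bp, near the WT +2 dyad of RPN7 at 105 bp. Whether the numbered calls of RPN8 match those of other members was not tested. At +4 the dyads of 5 of 7 lid genes lay upstream (median -2 bp). Of the members that are not subunits, RPN4 had upstream shifts at all 4 positions by the peak (-3, -1, -5 and -7 bp). By the mean of the dyads its shifts were -4, 4, -2 and -2 bp, with counting errors of 1.86 to 4.03 bp. RPN14 had shifts of -4, 4, 5 and 6 bp by the peak, and of 2, 3, 6 and 7 bp by the mean. Without RPN4 and RPN14 the share of calls 10 bp or more downstream was 2.39%, against 2.21% with them.

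The stretch from the +1 to the +4 dyad was shorter in ioc3Δ than in WT in most members. Its median length was 484 bp in ioc3Δ and 485 bp in WT over 27 members, and 502 bp and 500 bp over 3996 genes. The change per gene had a median of -3 bp in members (95% interval -4 to -1 bp) and of 1 bp in all genes. It was shorter in 20 of the 27 members (74.1%) and in 41.7% of all genes. The change between +1 and +2 was 1 bp in members and 2 bp in all genes, between +2 and +3 it was -1 bp and 0 bp, and between +3 and +4 it was -2 bp and -1 bp. The table labelled ioc3ΔcHLB gave -4 bp from +1 to +4 in 28 members and 1 bp over all genes.

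The calling sets a floor under these distances, since no 2 dyads of a table were closer than 148 bp. Between +2 and +3, 8 of 29 members stood at this floor in ioc3Δ (27.6%) and 2 in WT (6.90%), against 11.6% and 6.09% of all genes. Between +3 and +4, 9 of 27 members did in ioc3Δ (33.3%) and 4 in WT (14.8%), against 17.9% and 8.61% of all genes. With only calls whose neighbours on both sides were over 150 bp away in both tables, a restriction chosen after the data were seen, the member medians were 1 bp at +2 (22 members), 1 bp at +3 (11) and -1 bp at +4 (11), against 4, 4 and 3 bp over all genes. Members thus stayed below all genes at these positions, on fewer genes. GC content under the nucleosomes was 40.1% in members and 39.5% in all genes.

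Beyond the first 4 nucleosomes, the dyads of the members lay upstream of WT more often than downstream. For calls up to 120 bp past the start codon the median shift was 1 bp in members and 2 bp in all genes. Between 120 and 300 bp it was 2 bp and 3 bp, and between 300 and 480 bp it was 0 bp and 3 bp. From 480 to 660 bp it was -3 bp against 2 bp, and from 660 to 1000 bp -4 bp against 0 bp. Beyond 480 bp the member medians were thus upstream of WT, while the all-gene median was still downstream up to 660 bp. From 1000 to 1500 bp the medians were -4 bp in members and -2 bp in all genes, and beyond 1500 bp, where only RPN1 and RPN2 had calls (12), they were -1.5 bp and -1 bp.

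**Figure D2:**
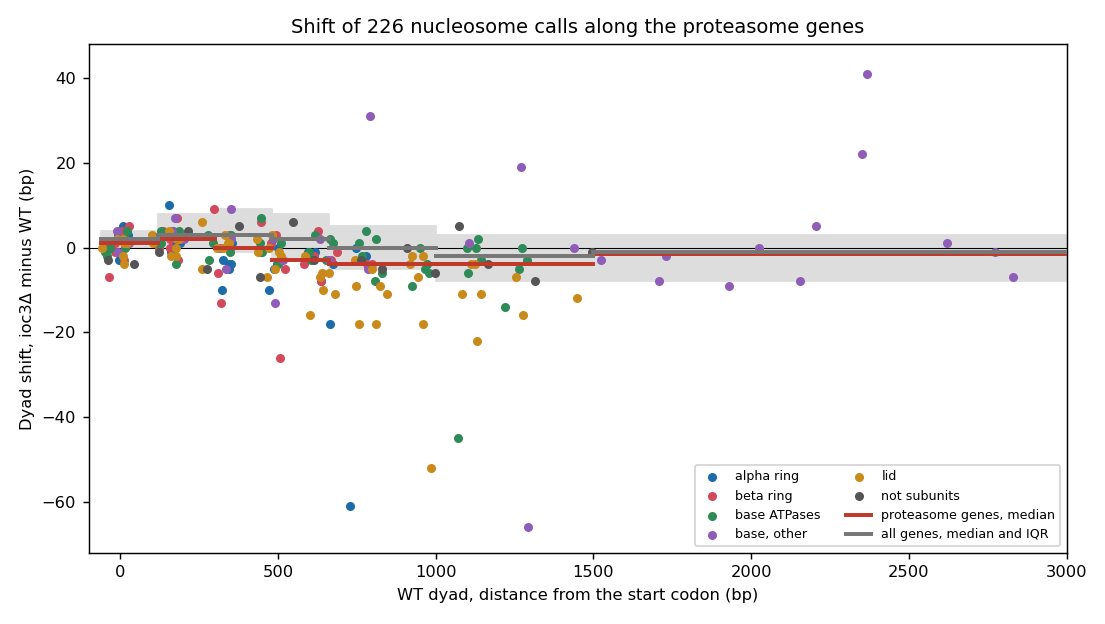
Shift of each of the 226 member calls (bp, ioc3Δ minus WT) against the distance of its WT dyad from the start codon (bp), coloured by subcomplex. Red lines are medians of members and grey lines and bands medians and interquartile ranges of all genes in the same distance bins. The red line runs at -3 and -4 bp between 480 and 1000 bp, where the grey one is at 2 and 0 bp.

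Over all positions, 5 of the 226 member calls (2.21%, in PRE9, RPN1 and RPN2) lay 10 bp or more downstream, against 15.5% of calls in all genes. The exact binomial interval of this share, for calls taken as independent, was 0.722% to 5.09%. In the other direction, 23 calls in 12 members lay 10 bp or more upstream (10.2%), and 13% of calls in all genes did. In 20 of the 34 members no call lay 10 bp or more away, which held for 26.3% of all genes. Members had a median of 6 calls and all genes of 7. By an unequal-variance test rebuilt from the SDs and occupancies of a call, at an unadjusted p under 0.01, 6 member calls lay downstream, against 12.5% of all calls, and 14 upstream, against 9.05%. This test compares the merged libraries, not the strains. In the table labelled ioc3ΔcHLB, 2.19% of member calls and 12.6% of all calls were 10 bp or more downstream. Of 26 member calls past 10 bp in ioc3Δ that could be looked up there, 14 were past 10 bp the same way. The lid, with 58 calls the largest subcomplex here, held 13 of the 23 upstream calls, in RPN3, RPN5, RPN6, RPN7, RPN9 and RPN11, and the base scaffolds RPN1 and RPN2 held 4 of the 5 downstream ones. These counts and shares were not matched for distance from the start codon. Over all genes the upstream share was 3.19% of calls up to 120 bp and 22.1% from 1000 to 1500 bp. In members it was 0% and 30.8% there. From 300 to 480 bp it was 8.57% in members and 5.94% in all genes, and from 480 to 660 bp 11.4% and 8.12%. Beyond 1500 bp it was 0% of 12 member calls and 21.4% of all calls. Members were thus above all genes from 300 to 1500 bp and below them elsewhere.

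Of the 28 calls that lay 10 bp or more away, 23 were over 500 bp past the start codon. The WT dyads of these 28 had a median distance of 829 bp, against 446.5 bp for the other member calls. Over all genes these medians were 935 and 671 bp, so such calls lay farther along there too. The call with the largest shift was in RPN2, at 1227 bp in ioc3Δ and 1293 bp in WT, which is 66 bp upstream by the peak and 57 bp by the mean of the dyads. Its occupancy was 58.8 in ioc3Δ and 42.8 in WT. Its SD, the spread of the dyads in a call, was 38.8 bp in ioc3Δ and 41.7 bp in WT, so the dyads were loosely placed in both strains. The largest downstream shift was in RPN1, at 2407 bp in ioc3Δ and 2366 bp in WT (41 bp, occupancy 23.7 in ioc3Δ and 21.95 in WT). It was 13 bp in the table labelled ioc3ΔcHLB. A call of RPN1 at 822 bp in ioc3Δ and 791 bp in WT was 31 bp downstream by the peak and 12 bp by the mean of the dyads. The remaining one, at 1290 bp in ioc3Δ and 1271 bp in WT, was 19 bp downstream in ioc3Δ and 2 bp upstream in that table. An RPN2 call 22 bp downstream in ioc3Δ was 40 bp upstream there. Of the 3 downstream calls of RPN1 and RPN2 with a value in both mutant tables, 1 was 10 bp or more downstream in both.

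Several upstream calls, picked after their values were seen, were in the later part of genes and lay upstream in both mutant tables. From 660 to 1000 bp, 18.2% of member calls and 14.6% of all calls were 10 bp or more upstream in ioc3Δ. From 1000 to 1500 bp the shares were 30.8% and 22.1%. Not all such calls were alike in size, as 2 calls of RPN11 were 11 bp upstream in ioc3Δ and 3 and 2 bp upstream in the table labelled ioc3ΔcHLB. The last 2 calls of RPN9, a lid subunit gene, were 52 and 22 bp upstream in ioc3Δ and 21 and 21 bp upstream in the table labelled ioc3ΔcHLB. In RPT5 the last 2 calls were 45 and 14 bp upstream, and 13 and 14 bp there. RPN6, a lid scaffold gene, had its last 4 calls 10, 18, 18 and 11 bp upstream, and 7, 27, 13 and 10 bp there. PRE8 had its last call 18 bp upstream, and 15 bp there. The last call of PRE6 lay at 667 bp in ioc3Δ and 728 bp in WT, 61 bp upstream, with an occupancy of 22.9 in ioc3Δ and 7.73 in WT from 115 and 56 fragments, and was 42 bp upstream in that table. By the mean of the dyads the ioc3Δ shifts were -28 and -23 bp in RPN9 and -33 and -14 bp in RPT5. They were -8, -8, -23 and -5 bp in RPN6, -18 bp in PRE8 and -55 bp in PRE6.

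**Figure D3:**
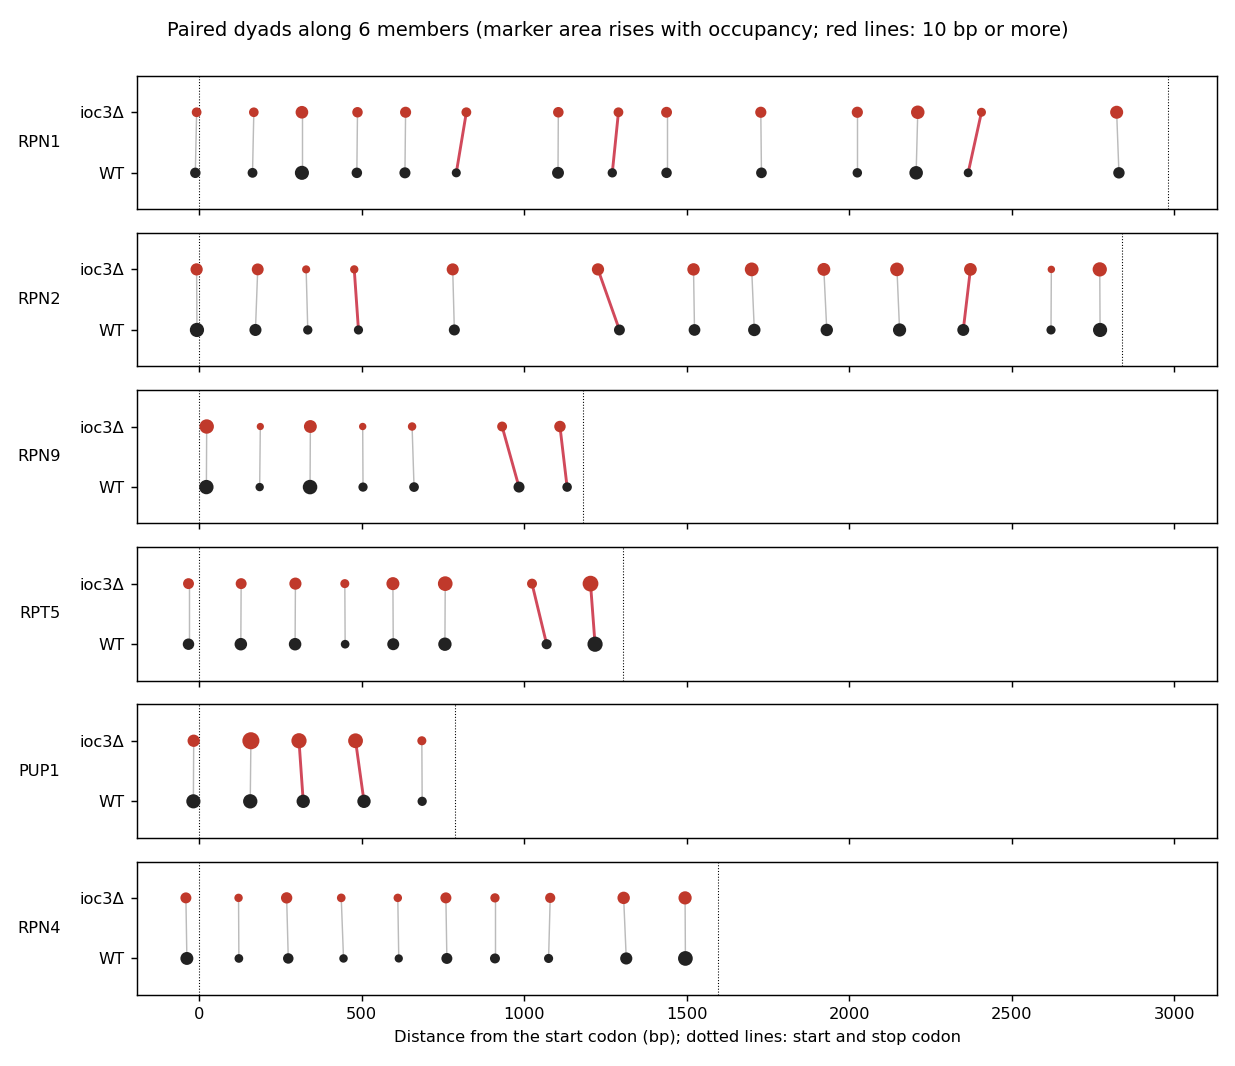
Paired dyads along 6 members (bp from the start codon), ioc3Δ above WT, with marker area rising with occupancy and red lines joining pairs 10 bp or more apart. The first 3 pairs of every gene but PUP1 are under 10 bp apart, the RPN2 pair at 1227 and 1293 bp leans most, and RPN4 has no red line among its 10 pairs.

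The DNA passed over between both dyads is shown for the calls of RPN1 and RPN2 with the largest shifts and for the last call of PRE6 and the +4 call of PUP1. Each stretch is read along the gene, 5′ to 3′, with 30 bases on either side in lower case and the bases from one dyad to the other in capitals. The ioc3Δ dyad is the first capital in RPN2, PRE6 and PUP1 and the last one in RPN1.
RPN2 (chrIX:219377-219503, - strand): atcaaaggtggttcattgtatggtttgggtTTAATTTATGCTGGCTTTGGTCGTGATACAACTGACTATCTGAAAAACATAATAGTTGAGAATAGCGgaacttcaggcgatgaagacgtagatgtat
PRE6 (chrXV:255974-256095, + strand): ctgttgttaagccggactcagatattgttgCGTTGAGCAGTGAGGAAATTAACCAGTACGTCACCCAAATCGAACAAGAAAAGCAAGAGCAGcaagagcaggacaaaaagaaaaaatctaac
PUP1 (chrXV:631214-631300, - strand): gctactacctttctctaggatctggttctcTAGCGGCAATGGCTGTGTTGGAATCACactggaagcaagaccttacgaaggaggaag
RPN1 (chrVIII:162274-162375, - strand): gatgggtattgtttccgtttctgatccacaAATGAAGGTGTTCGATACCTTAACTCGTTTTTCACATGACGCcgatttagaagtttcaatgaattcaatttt

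Calls that lay 10 bp or more away were less occupied and less sharply placed than the others. Member calls of this kind had median occupancies of 35.5 in ioc3Δ and 43.1 in WT and SDs of 28.8 bp and 26.3 bp. The 198 other member calls had 49.8 in ioc3Δ and 54.4 in WT, with SDs of 24.3 bp and 20.7 bp. Over all genes the SDs were 32.7 bp and 29.9 bp for calls past 10 bp, and 27.7 bp and 24.4 bp for the rest. The all-gene occupancies were 43.2 in ioc3Δ and 49.98 in WT for calls past 10 bp, and 55.8 and 63.8 for the rest. None of this was matched for distance from the start codon. The median WT SD of member calls was 14.5 bp up to 120 bp and 26.5 bp from 660 to 1000 bp. With only calls whose WT SD was at or under the median of all calls, 0.592% of member calls and 12.6% of all calls were 10 bp or more downstream. With only calls in the upper 75% of WT occupancy, 2 of 160 member calls and 14.1% of all calls were.

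Dyads were more spread out in ioc3Δ than in WT in all 34 members, by the median difference over the calls of a gene, as they were in 91% of all genes. The SD at +1 had a median of 17.0 bp in ioc3Δ and 14.7 bp in WT over members, and of 20.3 bp and 17.8 bp over all genes. At +2 it was 20.0 bp and 16.4 bp in members, and 22.4 bp and 19.02 bp in all genes. At +3 it was 23.6 bp and 18.9 bp in members, against 25.3 bp and 20.9 bp. At +4 it was 26.6 bp and 23.5 bp, against 27.7 bp and 23.2 bp. Members were thus more sharply placed than all genes at +1 to +3 in both strains. The SD was higher in ioc3Δ in 32 of 33 members at +1 (82.7% of all genes), 33 of 33 at +2 (87.1%), 27 of 29 at +3 (89.1%) and 23 of 27 at +4 (87.7%), so at +3 and +4 the members were near the share of all genes.

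**Figure D4:**
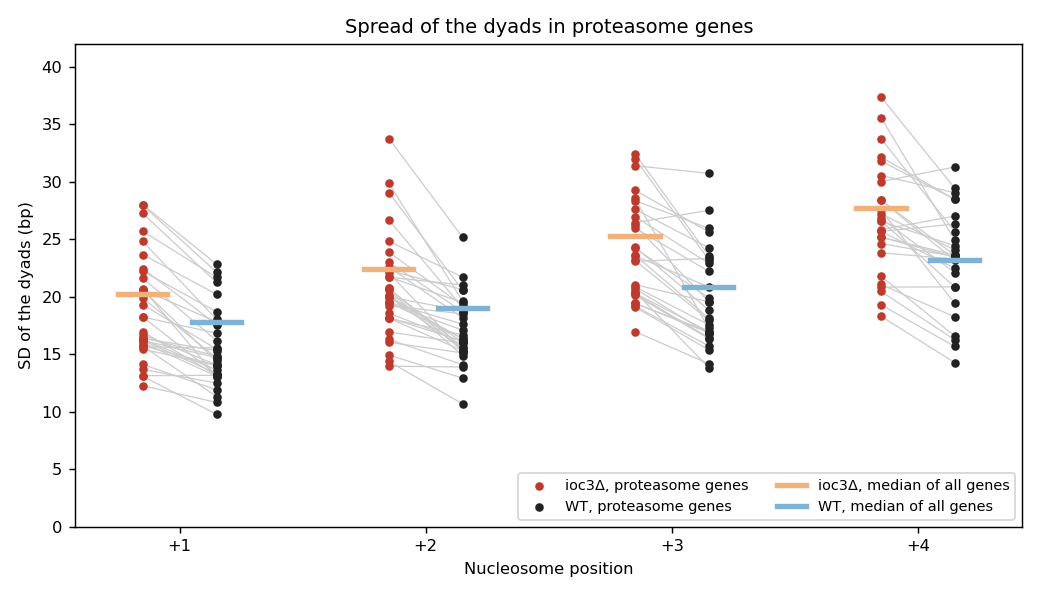
SD of the dyads (bp) at +1 to +4 in proteasome genes, ioc3Δ in red left of WT in black, with a line joining the values of a gene. Coloured bars are medians of all genes in ioc3Δ (20.3, 22.4, 25.3 and 27.7 bp) and in WT (17.8, 19.02, 20.9 and 23.2 bp). Nearly all lines slope down to WT.

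Over all 226 calls the difference had a median of 3.35 bp (95% interval 2.84 to 3.71 bp), and over all genes of 2.39 bp. It was 5 bp or more in 61 member calls (26.99%), against 22.8% of all calls, and at -5 bp or less in 2, against 2.4%. It was greatest in PRE4, a beta subunit gene, where the SD had medians of 27.2 bp in ioc3Δ and 18.6 bp in WT and the difference per call a median of 5.84 bp. The lid genes RPN5 (28.6 bp and 22.1 bp, median difference 5.73 bp) and RPN6 (26.4 bp and 21.2 bp, 5.27 bp) followed. It was smallest in RPN13 (15.5 bp in ioc3Δ and 14.8 bp in WT, 0.529 bp), RPN2 (32.5 bp and 30.0 bp, 0.773 bp) and RPN4 (32.4 bp and 29.4 bp, 1.19 bp). By subcomplex the medians were 4.16 bp in the lid, 3.79 bp in the ATPases, 3.44 bp in the beta ring, 2.56 bp in the alpha ring and 1.24 bp in the other base genes (RPN1, RPN2, RPN10 and RPN13), which is below that of all genes. RPN4 and RPN14 together had 1.61 bp. In the table labelled ioc3ΔcHLB the median was 5.12 bp in members and 3.90 bp in all calls.

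The occupancy ratio of the proteasome genes had nearly the same median as that of all genes, and PRE6 and RPN10 had the highest ones. Occupancy, relative to the genome-wide mean coverage, was summed over the calls of a gene and its ioc3Δ to WT ratio divided by the median ratio of all calls (0.892). The scaled ratio had a median of 1.11 in the 34 members (interquartile range 0.957 to 1.19) and of 1.07 in 5978 genes (0.929 to 1.34). It was above 1 in 24 of the 34 members, against 62.4% of all genes, and below 1 in 10. The direction depends on the scaling, as 16 members were above 1 without it and 6 when divided by the ratio of summed occupancies (1.18). At 1.5 or more were 2 members, against 16.5% of all genes, and at 1/1.5 or less were 0, against 1.62%.

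**Figure D5:**
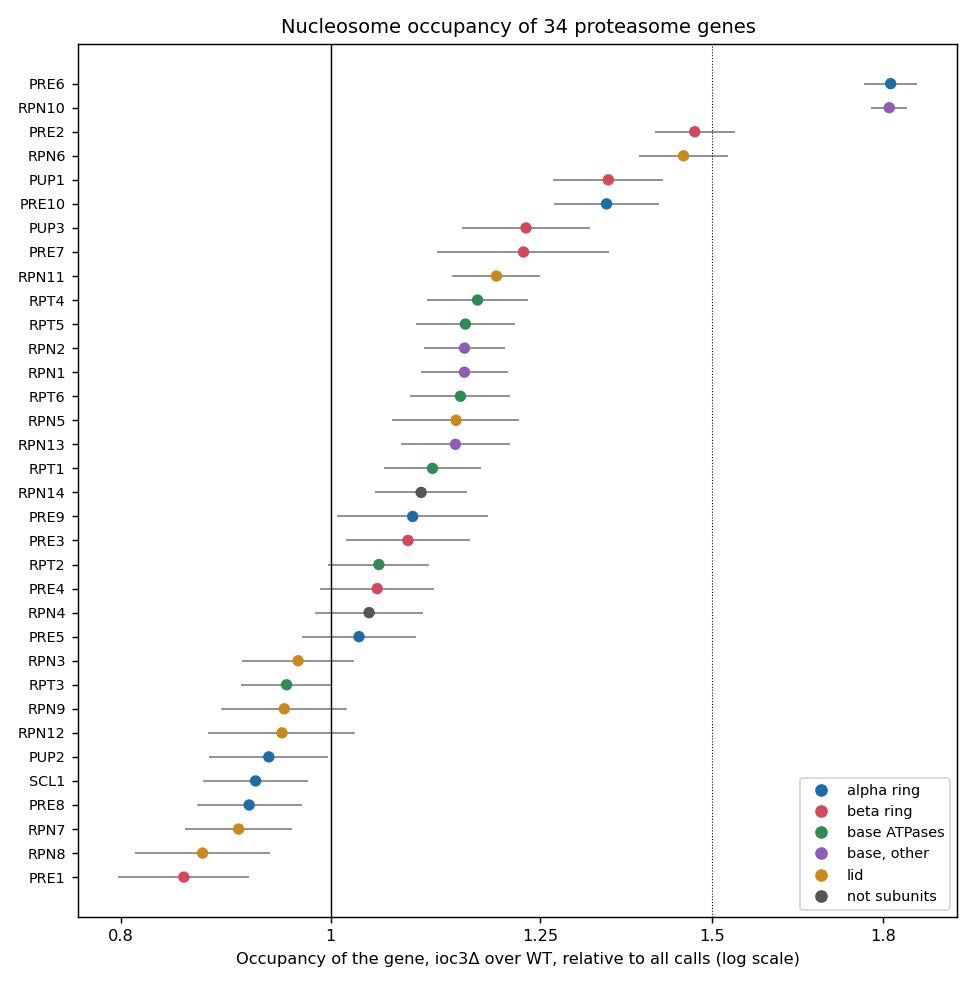
Scaled occupancy ratio of each proteasome gene (ioc3Δ over WT, log scale), with 95% counting intervals, coloured by subcomplex. The dotted line marks 1.5. PRE6 and RPN10 stand at 1.81, and the other members lie between 0.855 and 1.47.

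In RPN10 the summed occupancy was 4432 in ioc3Δ and 2743 in WT, a scaled ratio of 1.81 (95% counting interval 1.78 to 1.85). The most occupied calls of the gene were +2, with 2108 in ioc3Δ and 1257 in WT, and the last one, with 1647 and 898. In PRE6 it was 2006 in ioc3Δ and 1240 in WT, a scaled ratio of 1.81 (1.76 to 1.87), and the +3 call held 1419 of it in ioc3Δ and 819 in WT. These genes hold all 4 member calls with a WT occupancy of 300 or more. Such calls had a median scaled ratio of 1.61 over the genome, where 2950 calls reached it, and 57.4% of them were at 1.5 or more. The part of this level in the ratios of PRE6 and RPN10 was not tested. PRE2 was next, with 807 in ioc3Δ and 615 in WT, a scaled ratio of 1.47 (1.41 to 1.54), and its +2 call held 491 in ioc3Δ and 243 in WT.

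The lowest scaled ratios were those of PRE1, a beta subunit gene, of RPN8 and of RPN7, both in the lid. PRE1 had a summed occupancy of 247 in ioc3Δ and 323 in WT (0.855, interval 0.798 to 0.917). RPN8 had 231 in ioc3Δ and 297 in WT (0.872, 0.812 to 0.937), and RPN7 372 in ioc3Δ and 460 in WT (0.907, 0.856 to 0.960). In PRE1 the +1 call was the lowest relative to WT, with 73.7 in ioc3Δ and 117 in WT. Unscaled, the ratios were 0.762, 0.778 and 0.808.

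The 27 members with the PACE had median shifts of 1, 2, 0 and -1 bp from +1 to +4 (on 22 genes at +4), and those without it 1, 1.5, -2.5 and -3 bp over 5 to 6 genes. The other genes with the motif, 36 at +1 and 30 at +4, had medians of 2, 3, 3 and 3 bp, and their +2 shifts ran from -13 to 40 bp. Other genes of the ubiquitin-proteasome pathway were also set beside the members: SEM1, assembly chaperones, proteasome-bound regulators, and genes of ubiquitin, its activation and its delivery, 32 in all. The 25 over the length minimum had medians of 2, 5, 5 and 4 bp. At +2, 6 of them were 10 bp or more downstream and 0 upstream, beside 19% and 2.39% of all genes. Of their 347 calls, 60 (17.3%) were 10 bp or more downstream and 32 (9.22%) upstream, beside 15.5% and 13% of all calls. UBI4, which encodes ubiquitin as head-to-tail repeats, had the largest +2 shift with 40 bp, although reads in near-identical repeats can be misplaced. NAS6, a chaperone gene of the base, had the smallest with -1 bp.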

How the data were processed

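MNase-seq fragments of ioc3Δ, ioc3ΔcHLB and WT cells were mapped by the authors to sacCer3 with Bowtie2 2.0, as their processing notes list, and nucleosomes were called on the merged cultures of each strain. Each deposited call has a dyad position in bp, a score that is the SD of its dyads, and an occupancy, which is a signal the authors normalized to mean genome-wide coverage. WT and mutant calls are paired by row, with an overlap of at least 73 bp by the methods. Of 53840 rows for ioc3Δ, 1911 repeats and 12 rRNA-locus calls were left out, and 51917 were used (52499 of 54446 for the table labelled ioc3ΔcHLB). Genes came from the RefSeq annotation of the same build.

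In genes longer than 560 bp, +1 was the first call in a window reaching 60 bp before and 120 bp past the start codon, and each following position lay 110 to 230 bp beyond. Transcription start sites were not used. The fragment number of a call is its occupancy divided by that of 1 fragment (0.199 in ioc3Δ, 0.138 in WT). Median fragments per call were 252 and 422. Sizes of 10 bp, 5 bp (SD) and 1.5-fold served as calls, since 1 merged library per strain allows no test across samples. Intervals are at 95% (binomial).

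The members, gene lists, motif and rules were chosen with earlier results of these data known. Named were the 6 members with the largest and 3 with the smallest +2 shift (ties by symbol), those with +1 shifts of 10 bp or more (there were 0), the 3 highest and lowest by occupancy ratio and by SD difference, the largest single shift each way, RPN1, RPN2, RPN4, RPN14, and the extreme other pathway genes. Others were named after their values were seen. The calculation was tested on simulated data. Scripts ran under Python 3.11.15 with scipy 1.17.1, pandas 2.3.3, numpy 2.4.6 and, for figures, matplotlib 3.10.9.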

Additional observations from a re-analysis of the deposited data

How the results depend on the processing

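Of 87 values recomputed under alternatives, 76 stayed within the 95% interval of the reported value or, for the count, within 1.5-fold of it, 9 moved beyond that, and the occupancy ratio passed to the other side of 1 in 2 settings. Such intervals are wide for few genes, and the +3 median, reported at 0, lay on either side of 0 within its own. The median +1 to +4 shifts of the members kept within 1.5 bp of the values above. They ran from 0.515 to 2, 1 to 2, -1 to 1 and -3 to -0.5 bp, and over all genes from 1 to 3, 4 to 5.16, 4 to 6.21 and 3 to 5.56 bp. The count of members with +2 shifts of 10 bp or more downstream (1, and 889 over all genes) was 2 with the mean dyad column (984), 3 at 5 bp (2139), 0 at 20 bp (273), 2 with a rebuilt unequal-variance test at p under 0.01 (1155) and 0 in the table labelled ioc3ΔcHLB (710). The share of member calls downstream (2.21%) was 0.592% with sharply placed WT calls alone and 7.96% at 5 bp, against 12.6% and 28.8% of all calls. At 20 bp it was 1.33% (7.29% of all calls), and 2 of 160 in well-occupied calls. The +1 to +2 distance change was of the other sign, -1 bp, with the mean dyad column (2 bp over all genes), in place of 1 bp. The SD difference was 5.12 bp in the table labelled ioc3ΔcHLB. The median occupancy ratio of members was 0.988 without scaling and 0.836 when scaled by summed occupancies (0.957 and 0.810 over all genes). Scaling divides members and all genes by the same constant, so their order was fixed by rule and these settings do not test it.

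No paired analysis was possible because the tables hold merged cultures and their columns carry no replicate number, and no replicate was left out. The counting errors at member +1 to +4 calls, which belong to mean dyads, ran from 0.222 to 5.47 bp. The mutant tables placed 7.66% of their shared member calls 10 bp or more apart, and the part of depth in this was not tested. The restrictions to calls with distant neighbours and to no length minimum were added after the data were seen.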
